A study of Mus musculus with 9 samples.

Results

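The genes described here encode 7 proteins that are measured in urine as signs of acute kidney injury: Lcn2, Havcr1, Spp1, Clu, Timp2, Igfbp7 and Cst3. They were chosen by name, for that use of their proteins, with earlier results of these data known. All 7 were present in the deposited table of 34310 genes, and all 7 were among the 15015 genes tested. The RNA was from mouse kidney, with 3 mice in each of 3 groups: mice that received LPS (lipopolysaccharide, a bacterial endotoxin) together with thymosin β4 (LPS+Tβ4), mice given LPS alone, and mice given saline. Thymosin β4 is a small peptide that binds monomeric actin. The title of the series concerns sepsis-associated acute kidney injury, and neither doses, times and routes nor the sex, strain and age of the mice stand in the labels. Nothing in the labels describes the mice further, so the p-values measure the spread between these 9 libraries. Only RNA of the tissue was measured, and no protein in kidney or urine.

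Injured tubule cells release some of these proteins themselves. Lcn2 encodes NGAL, a secreted protein that binds iron-loaded siderophores and is made by stressed tubule cells and by neutrophils. Havcr1 encodes KIM-1, a receptor for phosphatidylserine that proximal tubule cells display after injury and whose outer part is shed into urine. Spp1 encodes osteopontin, a secreted phosphoprotein that binds integrins and CD44, and Clu encodes clusterin, an extracellular chaperone. Timp2 and Igfbp7 encode a metalloproteinase inhibitor and a binding protein of the insulin-like growth factor system, which are read together as a urinary sign of cell-cycle arrest. Cst3 encodes cystatin C, a cysteine protease inhibitor that most cells make, that the glomerulus filters and that the proximal tubule takes up by way of megalin.

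The libraries held 53 to 62 M counts each. The kidney label fitted the markers: none of the 8 proximal tubule genes checked was at 0 in any library. Their summed level was 1099 to 1702 counts per M (CPM) in LPS+Tβ4, 609 to 2497 CPM in LPS and at least 8548 CPM in saline. Transcripts of other tissues were present too. The summed level of 5 urothelial genes lay between 46.2 and 87.0 CPM in 5 libraries (LPS+Tβ4 replicate 3, LPS replicates 1 and 2, saline replicates 2 and 3) and between 0.758 and 2.13 CPM in the other 4, so that it split every group. The summed level of 7 neural genes was 490 to 592 CPM in LPS+Tβ4, 29.3 to 181 CPM in LPS and 59.2 to 67.2 CPM in saline. Levels are given in FPKM (per length of gene and depth) where genes are compared with each other, and otherwise in FPKM or in CPM after TMM scaling, as named beside each value.

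After LPS, 4 of the 7 genes rose by edgeR and 0 fell, at a Benjamini-Hochberg adjusted p under 0.05 over all genes tested: Lcn2, Havcr1, Spp1 and Clu. Over all tested genes, 20.9% were called higher and 22.2% lower in that comparison, 43.1% in either direction. The same 4 genes were higher in LPS+Tβ4 than in saline, where 12.3% of all genes were called higher, 11.8% lower and 24.1% in either direction. Between LPS+Tβ4 and LPS, 0 of the 7 passed in edgeR, where 4.5% of all genes were called higher, 2.33% lower and 6.83% in either direction. For that contrast 1 member, Spp1, had an unadjusted p under 0.05 in edgeR, DESeq2 called 1 (again Spp1) and limma on log2(FPKM + 1) called 0. Over all genes, DESeq2 called 2442 of 14952 and this limma fit 1010 of 15015. By unadjusted p in edgeR, Spp1 was number 2706 of 15015, so at least 2706 genes had an unadjusted p under 0.05. Timp2, Igfbp7 and Cst3 passed in none of the 3 comparisons in edgeR. The median log2 change of the 7 was 2.00 for LPS over saline, 0.04 for LPS+Tβ4 over LPS and 2.27 for LPS+Tβ4 over saline, beside 0.02, -0.01 and 0.00 over all genes tested.

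**Figure D1:**
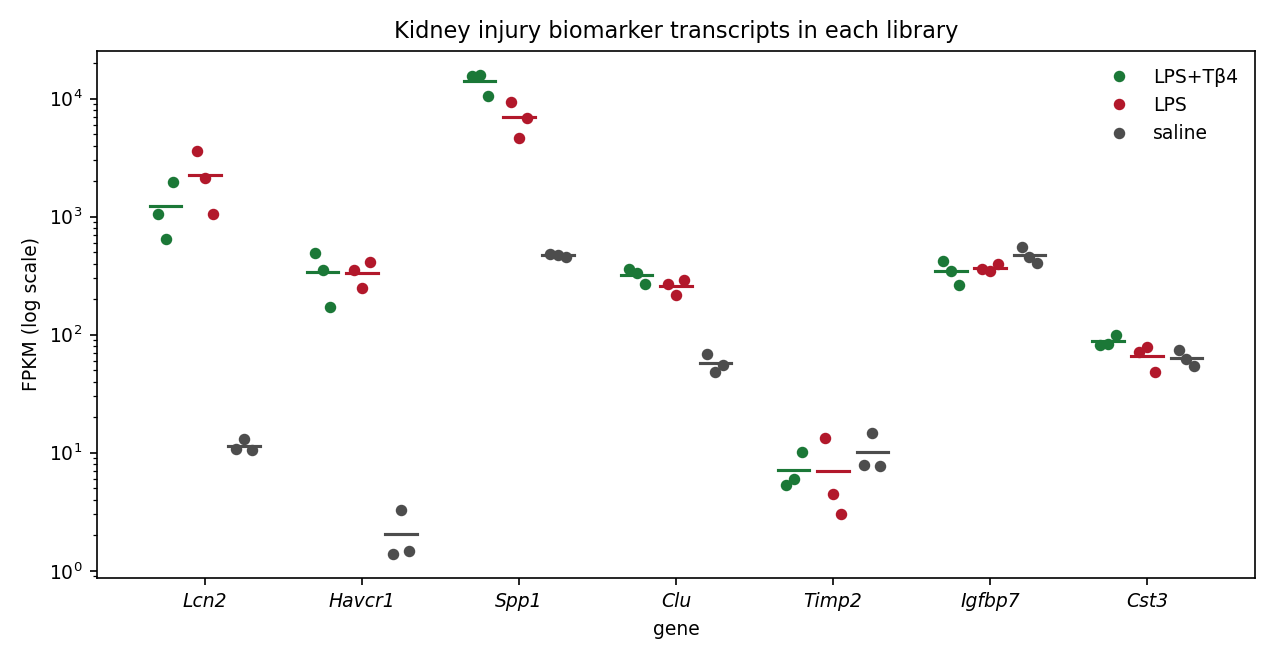
FPKM (log axis) of the 7 biomarker genes in each of 9 libraries, with LPS+Tβ4, LPS and saline from left to right within each gene; points are libraries and bars are group means (n = 3). Lcn2, Havcr1, Spp1 and Clu lie apart from saline in both LPS-treated groups, and Timp2 and Cst3 overlap saline in LPS.

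The order of the levels by FPKM differed between the LPS-treated groups and saline. In LPS+Tβ4 it was Spp1, Lcn2, Igfbp7, Havcr1, Clu, Cst3 and Timp2, with Lcn2 at 1222 ± 665 FPKM and Havcr1 at 339 ± 160 FPKM (SD, n = 3). Neighbours from Igfbp7 to Clu overlapped. In LPS the order and these overlaps were the same, with Lcn2 at 2253 ± 1271 FPKM and Havcr1 at 336.5 ± 83.2 FPKM. In saline, Igfbp7 and Spp1 stood highest, at 472 ± 76.1 and 469 ± 12.5 FPKM, with ranges that overlapped. Cst3 (63.2 ± 9.93 FPKM) and Clu (57.6 ± 10.2 FPKM) followed and overlapped, then Lcn2 (11.5 ± 1.43 FPKM) and Timp2 (10.1 ± 3.98 FPKM), which overlapped as well. Havcr1 was the lowest in saline, at 2.04 ± 1.06 FPKM. Of the 15015 changes of LPS over saline ranked by rise, Lcn2 was number 27, Havcr1 number 29, Spp1 number 313 and Clu number 919.

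The start regions of these genes differed in sequence. RefSeq windows of 300 bases (build GRCm38.p6, 250 bases before to 50 after a start) were found for 6 of the 7 genes, all but Clu. The windows of the genes that rose held few CpG dinucleotides: 3 for Lcn2, 4, 3 and 2 for the starts of Havcr1, and 3 for each of 2 starts of Spp1. The windows of the genes that were not called held 25 for Timp2, 33 for Igfbp7 and 13 for Cst3, where the median over all 32851 windows was 7. At most 3 CpG stood in 31.4% of all windows, at least 13 in 37.9%, at least 25 in 18.4% and at least 33 in 8.56%. The 250 bases before a RefSeq start are shown for 2 genes that rose and for the cell-cycle pair, so this contrast can be read. They run 5′ to 3′ on the gene's strand, with each CpG in capitals. For some genes the RefSeq start differed from the gene end in the deposited table. The Timp2 stretch and the Havcr1 windows lie inside the gene spans given below, and the Lcn2 stretch lies partly inside. The stretches are chr2:32387740-32387989, minus strand for Lcn2, chr5:104434861-104435110, plus strand for the first start of Spp1, chr11:118355412-118355661, minus strand for Timp2 and chr5:77408046-77408295, minus strand for Igfbp7.
Lcn2: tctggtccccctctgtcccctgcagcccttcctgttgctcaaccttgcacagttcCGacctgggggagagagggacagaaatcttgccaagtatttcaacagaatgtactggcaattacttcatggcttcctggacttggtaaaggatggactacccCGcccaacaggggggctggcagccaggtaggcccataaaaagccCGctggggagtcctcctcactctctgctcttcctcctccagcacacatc
Spp1: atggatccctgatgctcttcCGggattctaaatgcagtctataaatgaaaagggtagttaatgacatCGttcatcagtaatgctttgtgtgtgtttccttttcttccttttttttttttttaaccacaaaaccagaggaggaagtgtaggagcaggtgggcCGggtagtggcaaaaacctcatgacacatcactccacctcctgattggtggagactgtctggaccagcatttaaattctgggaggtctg
Timp2: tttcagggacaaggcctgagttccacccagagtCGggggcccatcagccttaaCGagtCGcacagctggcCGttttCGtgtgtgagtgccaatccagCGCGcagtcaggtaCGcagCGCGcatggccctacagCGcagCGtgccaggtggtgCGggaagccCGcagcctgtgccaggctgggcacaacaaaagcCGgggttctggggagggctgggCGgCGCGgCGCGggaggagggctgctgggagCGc
Igfbp7: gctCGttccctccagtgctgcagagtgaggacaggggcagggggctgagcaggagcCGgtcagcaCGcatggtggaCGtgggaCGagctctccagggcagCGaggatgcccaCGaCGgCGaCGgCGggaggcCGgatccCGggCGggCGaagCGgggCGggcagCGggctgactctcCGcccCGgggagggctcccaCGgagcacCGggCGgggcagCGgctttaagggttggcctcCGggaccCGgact
These stretches hold 3 CpG in Lcn2, 3 in Spp1, 21 in Timp2 and 26 in Igfbp7. Of 5 motifs searched on both strands of the 9 windows, AP-1 (TGANTCA) matched in the third Havcr1 window. The interferon-response element (ISRE) and TATAAA matched in the Spp1 window shown. The AP-1 match lay at bases 261 to 267 of its window, after the start. In Spp1, ISRE lay at bases 94 to 103 and TATAAA at bases 40 to 45 of the 250 before the start. Whether any of these matches acts was not tested. NF-kB and STAT (TTCNNNGAA) matched in none. The shares of all windows with a match were 7.81% for AP-1, 3.44% for ISRE, 13.6% for TATAAA, 8.46% for NF-kB and 8.3% for STAT. The CpG contrast rests on 6 genes and is a description.

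Lcn2 (chr2:32384633-32387797, minus strand) had 1061, 652 and 1952 FPKM in the LPS+Tβ4 libraries, 3580, 2133 and 1046 FPKM in the LPS libraries and 10.7, 13.1 and 10.6 FPKM in the saline libraries. The 6 libraries of LPS-treated mice were all far above saline, and the LPS+Tβ4 and LPS ranges overlapped. In LPS it was 170-fold higher than in saline (95% interval 68.1 to 426), a log2 change of 7.41 ± 0.58 (SE; edgeR adjusted p = 8.55e-05). In LPS+Tβ4 it was 90.3-fold higher than in saline (6.50 ± 0.56, adjusted p = 0.000306). The change of Lcn2 in LPS+Tβ4 over LPS was -0.91 ± 0.44, with a 95% interval of -1.92 to 0.09 (edgeR adjusted p = 0.238). The interval runs from 0.264 to 1.07 times the LPS level. Because the tissue was sequenced in bulk, more cells of a type and more RNA per cell cannot be told apart for this or any other gene here.

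Like Lcn2, which neutrophils also make, neutrophil transcripts were higher in both LPS-treated groups than in saline. The summed level of 10 neutrophil genes was 29.5 to 102 CPM in LPS+Tβ4, 51.5 to 83.1 CPM in LPS and 1.22 to 3.11 CPM in saline, and Ly6g was at 0 in all 3 saline libraries. Of the 10 genes, 7 were tested, 6 rose in LPS over saline and 7 in LPS+Tβ4 over saline. The level of Lcn2 was 3325 ± 1556 CPM in LPS+Tβ4 and 6267 ± 2910 CPM in LPS. In each LPS-treated group the lowest neutrophil sum and the lowest Lcn2 were in the same library, but the highest were not. Single neutrophil genes differed in LPS. Ltf (45.6, 32.3 and 1.31 CPM) was lowest in replicate 3, as the sum and Lcn2 were. S100a8 (4.75, 14.0 and 10.2 CPM) and Ngp (5.04, 8.88 and 16.1 CPM) were lowest in LPS replicate 1, where Lcn2 was highest. In LPS+Tβ4 all of these were lowest in replicate 2, as Lcn2 was. These genes were chosen after their values were seen. The neutrophil sum was highest in LPS+Tβ4 replicate 1 (102 CPM, Lcn2 3139 CPM), and Lcn2 in LPS replicate 1 (9089 CPM, neutrophil sum 70.4 CPM). The part of neutrophils in the Lcn2 change was not tested. The tested genes whose profile over the 9 libraries was most like that of Lcn2 were Cxcl5, a neutrophil chemokine, Serpina3n, an acute-phase protease inhibitor, and Lrg1, a secreted leucine-rich glycoprotein, with root mean square differences of 0.696, 0.734 and 0.832 on the centred log2 CPM scale.

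Havcr1 (chr11:46735080-46779578, plus strand) had 492, 353 and 173 FPKM in the LPS+Tβ4 libraries, 352, 247 and 411 FPKM in the LPS libraries and 1.39, 3.26 and 1.46 FPKM in the saline libraries. Each library of an LPS-treated mouse was above every saline library, and the lowest and highest values among them were both in LPS+Tβ4. In LPS it was 151-fold higher than in saline (95% interval 58.6 to 391), a log2 change of 7.24 ± 0.60 (edgeR adjusted p = 0.0001). In LPS+Tβ4 it was 150-fold higher than in saline (7.23 ± 0.60, edgeR adjusted p = 0.000281). For Havcr1, LPS+Tβ4 over LPS gave -0.01 ± 0.46 with a 95% interval of -1.05 to 1.03 (edgeR adjusted p = 0.992), or 0.483 to 2.04 times the LPS level. The most similar profiles were those of the fibrinogen chains Fga and Fgg (0.523 and 0.616) and of the acute-phase gene Saa2 (0.563).

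The ratio of the NGAL transcript to the KIM-1 transcript differed within both LPS-treated groups along the urothelial split. Among the 6 libraries of LPS-treated mice, the ratio of Lcn2 to Havcr1 in FPKM was 11.3 in LPS+Tβ4 replicate 3 and 10.2 and 8.64 in LPS replicates 1 and 2, the 3 libraries with urothelial transcripts. It was 2.16 and 1.85 in LPS+Tβ4 replicates 1 and 2 and 2.54 in LPS replicate 3, the 3 libraries without. The ratios of these 2 sets of libraries did not overlap, and each set held libraries of both groups. In saline the ratio was 4.02 and 7.30 in the libraries with urothelial transcripts and 7.68 in the library without them, so saline did not show this order. This ratio was chosen after its values were seen, and the part of urothelial RNA in it was not tested.

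Means were also compared within the libraries with and without urothelial transcripts. With urothelial transcripts, the log2 ratio of LPS+Tβ4 to LPS (1 library against 2) was -0.65 for Lcn2 and -0.90 for Havcr1. Without them (2 libraries against 1), it was -0.39 for Lcn2 and -0.06 for Havcr1. For LPS over saline the log2 ratios were 7.72 (with) and 6.48 (without) for Lcn2 and 6.82 (with) and 8.07 (without) for Havcr1. With the urothelial sum as a covariate in edgeR, the 4 genes that rose in LPS were still called, with log2 changes of 7.37 for Lcn2, 7.08 for Havcr1, 3.68 for Spp1 and 1.95 for Clu.

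**Figure D2:**
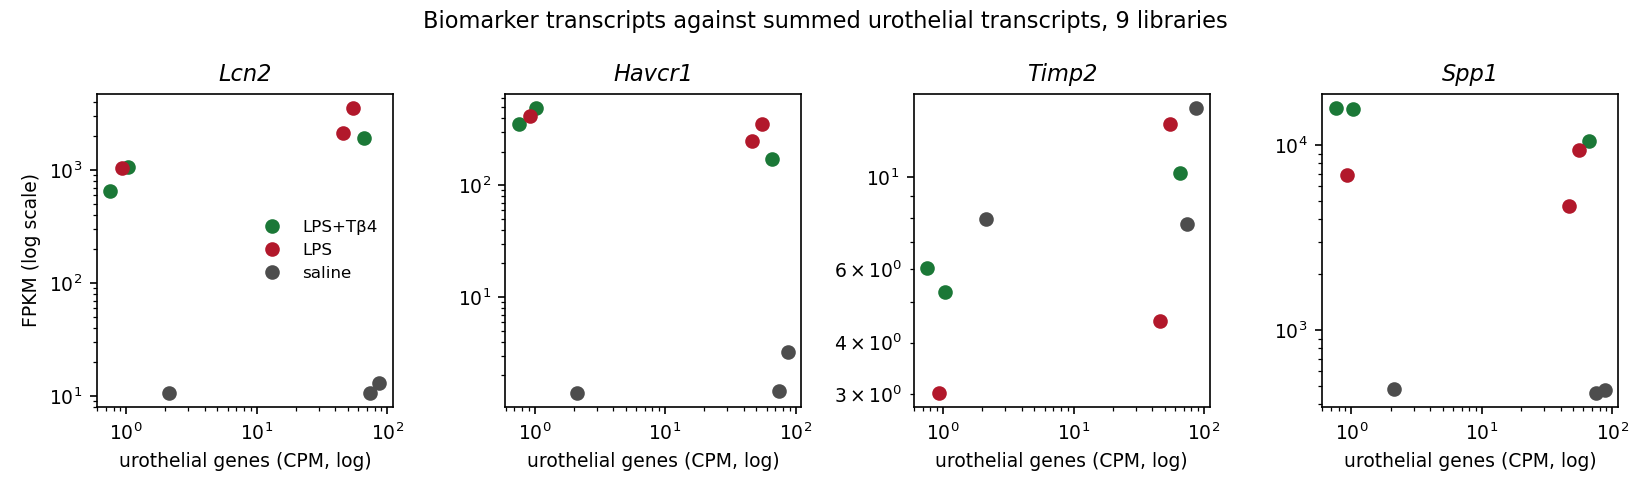
FPKM (log axis) of Lcn2, Havcr1, Timp2 and Spp1 against the summed CPM (log axis) of 5 urothelial genes, 1 point for each of 9 libraries, coloured by LPS+Tβ4, LPS and saline. In each group the libraries stand in 2 clusters along the horizontal axis, at 0.758 to 2.13 CPM and at 46.2 to 87.0 CPM.

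Counts of partner genes called in LPS over saline, here and for the other lists, stand beside the shares over all genes given above (20.9% higher, 22.2% lower). For LPS+Tβ4 over LPS, list counts at an unadjusted p under 0.05 or called by DESeq2 or limma stand beside those over all genes. These were at least 2706 of 15015 in edgeR, 2442 of 14952 in DESeq2 and 1010 of 15015 in limma on log2(FPKM + 1). Havcr1 belongs to the TIM family, and metalloproteinases of the ADAM family and their iRhom partners act in shedding. Of 7 listed TIM and shedding genes 5 were tested, and 3 rose in LPS over saline by edgeR with 0 falling. The iRhom genes Rhbdf2 (58.1 ± 24.3 CPM in LPS, 9.55 ± 1.61 CPM in saline; 2.60, adjusted p = 0.000453) and Rhbdf1 (0.81, adjusted p = 0.00744) rose. So did the TIM family gene Timd2, with 268 ± 137 CPM in LPS and 76.9 ± 10.4 CPM in saline (1.80, edgeR adjusted p = 0.0102). None of the 5 passed in LPS+Tβ4 over LPS by edgeR, DESeq2 or limma (2 at an unadjusted p under 0.05 in edgeR).

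Genes of endocytic uptake, among them the receptors that take filtered Lcn2 and Cst3 proteins back into the tubule, mostly went the other way. Of 10 uptake genes, 7 fell and 1 rose in LPS over saline by edgeR, with a list median of -1.32 beside 0.02 over all genes. The list also holds other lipoprotein receptors and genes that are not receptors. Lrp2, which encodes megalin, had 14.8, 21.9 and 14.0 FPKM in the LPS+Tβ4 libraries, 7.97, 9.07 and 14.7 FPKM in the LPS libraries and 94.7, 98.5 and 120.8 FPKM in the saline libraries. It was lower in every library of an LPS-treated mouse than in any saline library (LPS over saline -3.43 ± 0.36, edgeR adjusted p = 0.000264). Cubn, the gene of its partner cubilin, fell by 3.10 ± 0.37 on the log2 scale (adjusted p = 0.000442), and Lrp8, an apolipoprotein E receptor, rose by 2.83 ± 0.39 (adjusted p = 0.000812). Both Lrp2 and Cubn are also on the proximal tubule marker list, whose sum was lower in LPS, as given above, and of its 8 genes 7 fell. In LPS+Tβ4 over saline 3 of the 10 fell and 1 rose, where 11.8% of all genes were called lower and 12.3% higher.

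Slc22a17, which encodes a receptor for the Lcn2 protein, was lower in LPS than in both other groups. It had 19.5, 24.2 and 20.6 CPM in LPS+Tβ4, 11.1, 6.02 and 8.24 CPM in LPS and 22.9, 20.9 and 21.4 CPM in saline. It fell in LPS over saline (-1.36 ± 0.22, edgeR adjusted p = 0.00187) and was higher in LPS+Tβ4 than in LPS (1.34 ± 0.22, edgeR adjusted p = 0.0188). Slc22a17 is also expressed in brain, and the part of the neural transcripts of LPS+Tβ4, given above, in this difference was not tested. The chloride-proton exchanger gene Clcn5, which serves endocytosis in the proximal tubule, was the other of 2 uptake genes higher in LPS+Tβ4 than in LPS, at 107.6 ± 27.0 CPM in LPS+Tβ4 and 43.8 ± 10.9 CPM in LPS (1.30 ± 0.23, edgeR adjusted p = 0.0226). Lrp2 was at 0.60 ± 0.33 in that contrast (adjusted p = 0.298). The calls of Slc22a17 and Clcn5 in this contrast were lost without LPS+Tβ4 replicate 1 (adjusted p = 0.0533 and 0.0635) and without LPS+Tβ4 replicate 2 (adjusted p = 0.0916 and 0.0946), and that of Clcn5 also without LPS replicate 2 (adjusted p = 0.0619). Each was lost as well when the 6 libraries compared were fitted alone (edgeR adjusted p = 0.0834 and 0.0843). The replicate block also ended both calls (edgeR adjusted p = 0.0695 and 0.0797). Each gene passed in 6 of the 9 fits with 1 library left out.

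Spp1 (chr5:104435118-104441050, plus strand) was the most abundant of the 7 genes in every library of an LPS-treated mouse. It had 15630, 15960 and 10500 FPKM in the LPS+Tβ4 libraries, 9461, 4673 and 6920 FPKM in the LPS libraries and 480, 473 and 456 FPKM in the saline libraries. The 3 groups did not overlap, with every LPS+Tβ4 library above every LPS library and every LPS library above saline. In LPS it was 13.2-fold higher than in saline (95% interval 7.02 to 24.8), a log2 change of 3.72 ± 0.40 (edgeR adjusted p = 0.000275). In LPS+Tβ4 it was 26.2-fold higher than in saline (95% interval 13.5 to 50.7; 4.71 ± 0.42, edgeR adjusted p = 0.000348).

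Spp1 was 1.99-fold higher in LPS+Tβ4 than in LPS (95% interval 1.12 to 3.51), a log2 change of 0.99 ± 0.36. This did not pass in edgeR (unadjusted p = 0.0242, adjusted p = 0.134), and DESeq2 called it (0.98 ± 0.28, adjusted p = 0.00655). Ranges were apart for 2 of the 7 genes in this contrast, Spp1 and Cst3, both higher, where 26.3% of all genes tested had ranges apart, 14.4% with the LPS+Tβ4 range higher. Within the libraries with urothelial transcripts the log2 ratio of Spp1 in LPS+Tβ4 to LPS was 0.49, and within those without it was 1.08. Macrophages can make osteopontin, and the sum of 10 macrophage genes was 111 to 139 CPM in LPS+Tβ4, 71.6 to 84.6 CPM in LPS and 70.7 to 125 CPM in saline. Of its 8 tested genes 0 passed in LPS+Tβ4 over LPS, and the part of macrophages in the Spp1 values was not tested.

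Spp1 alone took 2.59% ± 0.566 of all counts in LPS+Tβ4, 1.29% ± 0.41 in LPS and 0.087% ± 0.00283 in saline. By FPKM it ranked second in all 3 LPS+Tβ4 libraries, behind the mitochondrial gene mt-Co1. In the LPS libraries it ranked 2, 16 and 8, and in the saline libraries 53, 53 and 58. All 7 genes together held 2.71% to 3.55% of the counts in LPS+Tβ4, 1.72% to 2.96% in LPS and 0.175% to 0.211% in saline. Lcn2 reached 1.02% of the counts in LPS replicate 1, its highest share. The gene model Gm42793 overlaps Spp1 on the same strand and held 1707 counts per library on average, where Spp1 itself held at least 50246.

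**Figure D3:**
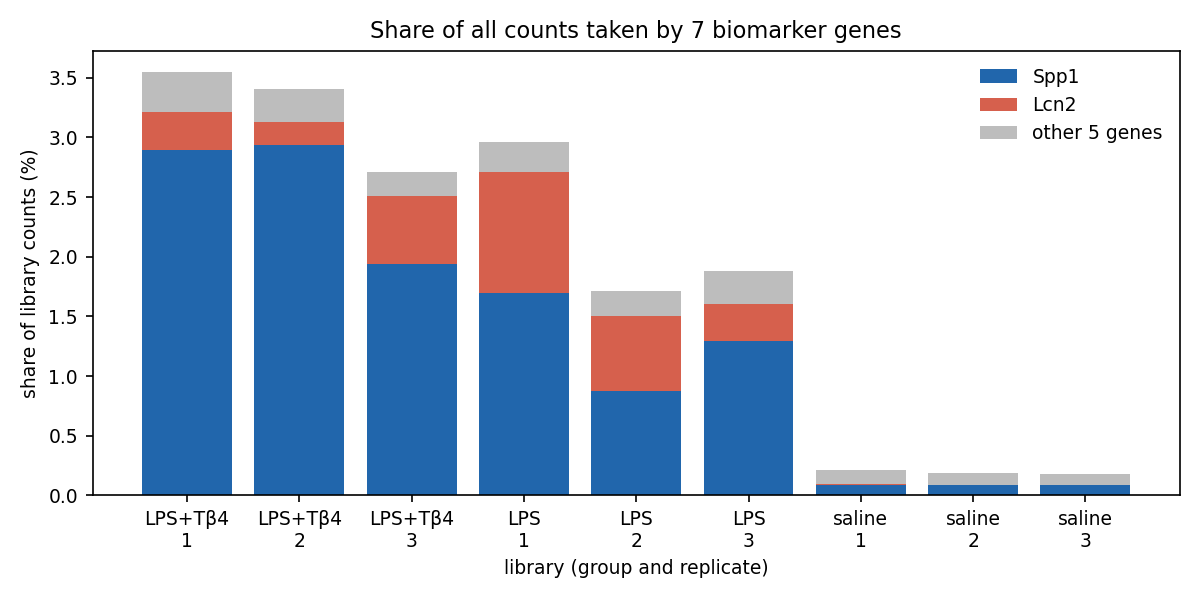
Share of all library counts (%) taken by Spp1, Lcn2 and the other 5 biomarker genes, stacked from 0, in each library of LPS+Tβ4, LPS and saline. Spp1 makes up most of each bar in LPS+Tβ4, and the saline bars reach 0.211% at most.

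The receptors and modifiers of osteopontin changed in both directions after LPS. Of 12 such genes, 6 rose and 3 fell in LPS over saline by edgeR, with a list median of 0.56. Itgb3, the β3 integrin subunit, rose by 2.55 (27.1 ± 9.13 CPM in LPS, 4.63 ± 1.29 CPM in saline; adjusted p = 0.000488), and Itga5, the α5 subunit, by 2.19 (adjusted p = 0.000618). Itga8, an integrin subunit of mesangial and smooth muscle cells, fell by 3.02 (3.24 ± 0.944 CPM in LPS, 26.3 ± 1.41 CPM in saline; adjusted p = 0.000158). The osteopontin and hyaluronan receptor Cd44 had 15.1, 10.4 and 23.0 CPM in LPS+Tβ4, 26.1, 18.1 and 12.5 CPM in LPS and 2.90, 4.01 and 4.86 CPM in saline. It was higher in every library of an LPS-treated mouse than in saline (LPS over saline 2.26 ± 0.38, edgeR adjusted p = 0.00203), and the LPS+Tβ4 and LPS ranges overlapped (-0.22 ± 0.36, edgeR adjusted p = 0.753). Of the 12, 0 passed in LPS+Tβ4 over LPS in edgeR, with 3 at an unadjusted p under 0.05 and 1 called by DESeq2. The profiles most like that of Spp1 were those of Lypd8 (0.42), Bcl3, a co-regulator of NF-kB (0.489), and the antigen-loading gene H2-DMb2 (0.515).

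Clu (chr14:65968483-65981547, plus strand) had 359, 335 and 267 FPKM in the LPS+Tβ4 libraries, 267, 218 and 291 FPKM in the LPS libraries and 68.7, 48.8 and 55.2 FPKM in the saline libraries. All libraries of LPS-treated mice were above saline, and the LPS+Tβ4 and LPS ranges overlapped. In LPS it was 4.00-fold higher than in saline (95% interval 2.64 to 6.07), a log2 change of 2.00 ± 0.26 (edgeR adjusted p = 0.00066). In LPS+Tβ4 it was 4.82-fold higher than in saline (2.27 ± 0.27, edgeR adjusted p = 0.000946). LPS+Tβ4 over LPS gave 0.27 ± 0.25, with a 95% interval of -0.31 to 0.84 (edgeR adjusted p = 0.56). Brain cells also make clusterin, and the neural marker sum was higher in LPS+Tβ4 than in LPS, as given above, with 6 of its 7 genes called higher. Its part in the Clu values of LPS+Tβ4 was not tested. The profiles closest to that of Clu were those of the stress-response gene Gadd45a (0.201), the ribosome biogenesis factor Eif6 (0.24) and the AP-1 gene Jun (0.246).

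Complement proteins and other extracellular chaperones stand beside clusterin, which also restrains the terminal complement complex. Of 10 listed genes 8 were tested, and 2 rose and 1 fell in LPS over saline by edgeR (list median -0.31). These 3 of 8 are no more than the 43.1% of all genes called in either direction. The complement component C3 rose to 769 ± 158 CPM in LPS, against 63.0 ± 41.2 CPM in saline (3.61, edgeR adjusted p = 0.000845), and Cd59a, an inhibitor of the terminal complex, fell by 0.76 (adjusted p = 0.00942), a call lost with library totals (adjusted p = 0.0672) and with limma at pseudocounts of 1 and 0.1 (0.0732 and 0.0727). Haptoglobin, Hp, was called by a small margin (4.60 ± 1.64, adjusted p = 0.0495) with 681 ± 933 CPM in LPS and 28.1 ± 11.9 CPM in saline, and without LPS replicate 2 it was 2.42 (adjusted p = 0.204). The call of Hp was also lost without any single saline library (edgeR adjusted p from 0.116 to 0.14) or without LPS+Tβ4 replicate 2 (0.0568). The complement protease Cfi was the only 1 of the 8 that passed in LPS+Tβ4 over LPS, at 13.4 ± 3.57 CPM in LPS+Tβ4 and 4.26 ± 1.28 CPM in LPS (1.65 ± 0.40, edgeR adjusted p = 0.0464). Its call was lost without any single LPS or LPS+Tβ4 library and without saline replicate 3 (edgeR adjusted p from 0.0607 to 0.187).

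Timp2 (chr11:118301069-118355740, minus strand) had 5.29, 6.04 and 10.2 FPKM in the LPS+Tβ4 libraries, 13.5, 4.51 and 3.02 FPKM in the LPS libraries and 7.92, 14.7 and 7.72 FPKM in the saline libraries. The 3 groups overlapped, and the highest LPS library was over 4 times the lowest. LPS over saline gave -0.75 ± 0.46 (95% interval -1.80 to 0.31, edgeR adjusted p = 0.222), and LPS+Tβ4 over saline gave -0.70 ± 0.46 (adjusted p = 0.308). Without LPS replicate 1, LPS over saline was -1.44 ± 0.33 and was called lower (edgeR adjusted p = 0.00932). LPS+Tβ4 over LPS was 0.04 ± 0.46 (95% interval -1.01 to 1.09, edgeR adjusted p = 0.966). The profiles most like that of Timp2 were those of Gstt3, a glutathione transferase (0.181), Cyb5r1 (0.199) and Dcaf4 (0.199).

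A paralog of Timp2, Timp1, behaved differently. The paralogs Timp3 (-0.31, edgeR adjusted p = 0.671) and Timp4 (0.76, edgeR adjusted p = 0.666) were, like Timp2, not called in LPS over saline. Timp3 and Timp4 were chosen after their values were seen. Timp1 had 16.9, 10.8 and 14.3 FPKM in the LPS+Tβ4 libraries, 17.2, 30.7 and 20.9 FPKM in the LPS libraries and 0.402, 1.03 and 0.231 FPKM in the saline libraries. It rose in LPS by 5.23 ± 0.56 (edgeR adjusted p = 0.00027) and was at -0.78 ± 0.46 in LPS+Tβ4 over LPS (adjusted p = 0.33). Of 15 genes of metalloproteinases and their inhibitors 10 were tested, and 5 rose and 1 fell in LPS over saline (list median 1.13). Matrilysin, Mmp7, rose by 6.87 ± 0.64, with 136.9 ± 74.4 CPM in LPS and 1.17 ± 0.31 CPM in saline (edgeR adjusted p = 0.000156). Mmp14, the membrane-bound enzyme that with Timp2 activates pro-MMP2, rose by 1.49 ± 0.14 (18.2 ± 0.154 CPM in LPS, 6.46 ± 0.125 CPM in saline; adjusted p = 0.000177). Mmp2 itself fell by 1.60 ± 0.50 on the log2 scale (1.44 ± 0.64 CPM in LPS, 4.36 ± 0.861 CPM in saline; edgeR adjusted p = 0.0309), a call lost without any single saline library or without LPS replicate 1 or 3 (adjusted p from 0.0616 to 0.0876). Of the 10, 0 passed in LPS+Tβ4 over LPS in edgeR and 0 had an unadjusted p under 0.05, with 0 called by DESeq2 or limma.

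Igfbp7 (chr5:77349240-77408041, minus strand) had 425, 347 and 266 FPKM in the LPS+Tβ4 libraries, 359, 344 and 400.0 FPKM in the LPS libraries and 555, 457 and 405 FPKM in the saline libraries. Every LPS library was below every saline library, by a narrow margin, and the highest LPS+Tβ4 library lay within the saline range in FPKM but not in CPM. LPS over saline gave -0.52 ± 0.26 (95% interval -1.11 to 0.08, edgeR adjusted p = 0.143). LPS+Tβ4 over saline gave -0.65 ± 0.26 (95% interval -1.24 to -0.05, unadjusted p = 0.0365, adjusted p = 0.11). With the urothelial sum as a covariate, edgeR called both lower, at -0.57 ± 0.15 for LPS over saline (adjusted p = 0.0158) and -0.89 ± 0.16 for LPS+Tβ4 over saline (adjusted p = 0.00533). LPS+Tβ4 over LPS was -0.13 ± 0.26 (95% interval -0.72 to 0.46, adjusted p = 0.802). Igfbp7 overlaps Polr2b on the opposite strand, which held 3195 counts per library on average, and whether reads were assigned by strand is not stated. Ranges in CPM were apart for 5 of the 7 genes in LPS over saline, Igfbp7 with the 4 that rose, where this held for 54.3% of all genes, and for the same 5 in LPS+Tβ4 over saline, where it held for 50.9%. The profiles most like that of Igfbp7 were those of the transcription factor Nfia (0.122), the RNA-binding protein gene Ybx1 (0.132) and E2f5 (0.133).

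**Figure D4:**
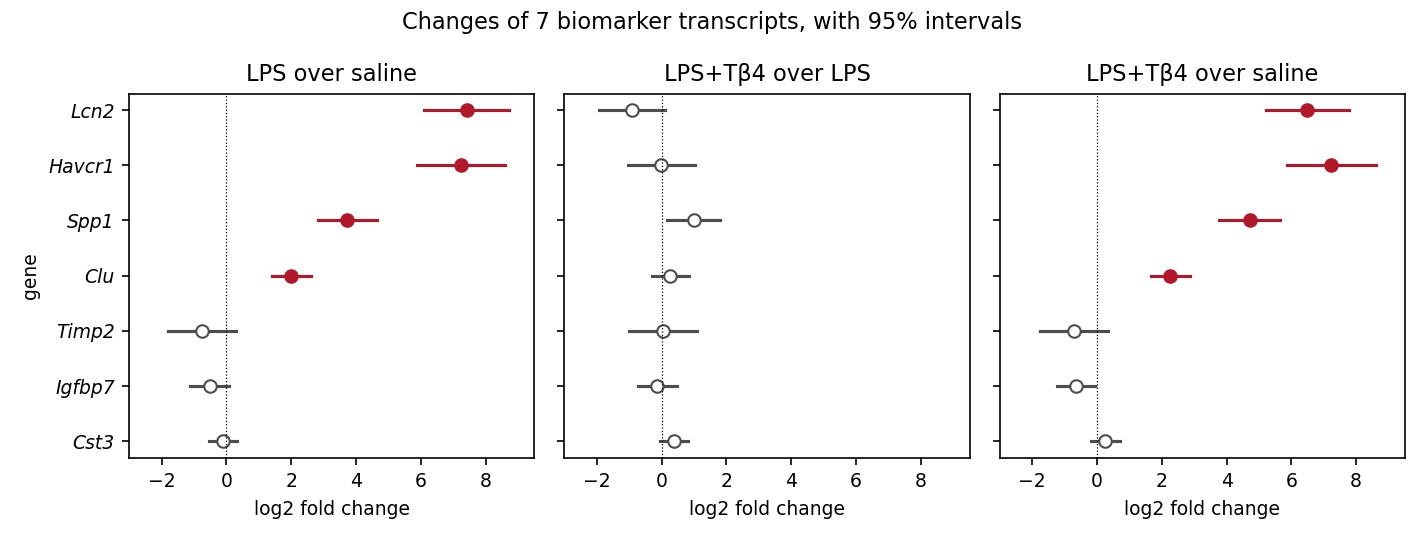
Log2 fold changes of the 7 genes from edgeR with 95% intervals, for LPS over saline, LPS+Tβ4 over LPS and LPS+Tβ4 over saline; filled points passed an adjusted p of 0.05 over all genes tested and open points did not. Lcn2, Havcr1, Spp1 and Clu are filled in both contrasts with saline, and no point is filled in LPS+Tβ4 over LPS.

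Genes of the insulin-like growth factor system were listed beside Igfbp7. Of 15 listed genes 14 were tested, and 6 fell and 1 rose in LPS over saline by edgeR, with a list median of -0.51. These 7 of 14 stand beside 43.1% of all genes called in either direction. The 7 calls became 3 without saline replicate 3 and 4 without saline replicate 2, LPS replicate 2 or LPS+Tβ4 replicate 3. Over all genes, these fits called 4867, 5162, 5506 and 6543 in that order, against 6473 with all libraries. Irs1, the insulin receptor substrate, fell by 1.64 on the log2 scale (7.99 ± 1.73 CPM in LPS, 24.9 ± 0.99 CPM in saline; adjusted p = 0.000789), and the receptor gene Igf1r fell by 0.90 (adjusted p = 0.00442). Cd93, an endothelial receptor for the IGFBP7 protein, rose by 0.96 (46.2 ± 12.4 CPM in LPS, 23.8 ± 2.32 CPM in saline; adjusted p = 0.0052). The binding protein gene Igfbp3 had 12.7, 13.3 and 8.78 FPKM in LPS+Tβ4, 21.4, 37.4 and 52.9 FPKM in LPS and 60.9, 28.3 and 19.7 FPKM in saline. Its LPS+Tβ4 libraries were below all others, while LPS and saline overlapped (-0.10 ± 0.51, edgeR adjusted p = 0.886). It was called lower in LPS+Tβ4 than in saline (-1.87 ± 0.53, edgeR adjusted p = 0.0343), and LPS+Tβ4 over LPS did not pass (-1.76 ± 0.53, adjusted p = 0.0818). That contrast did pass without LPS replicate 1 (-2.105, edgeR adjusted p = 0.0279), with the urothelial covariate (-2.02, adjusted p = 0.0169) and with DESeq2 (adjusted p = 0.00676). Of the 14, 0 passed in LPS+Tβ4 over LPS in edgeR, with 3 at an unadjusted p under 0.05, 2 called by DESeq2 and 1 by limma on log2(FPKM + 1).

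Timp2 and Igfbp7 are read in urine for arrest in G1, so genes that hold or drive the cell cycle there were examined beside them. They are called arrest genes here. Of 18 listed genes 17 were tested, and 7 rose and 5 fell in LPS over saline by edgeR (list median 0.40). The cyclin-dependent kinase inhibitor p21, Cdkn1a, rose by 3.49 ± 0.39, with 240.6 ± 61.6 CPM in LPS and 21.4 ± 10.2 CPM in saline (edgeR adjusted p = 0.000322). The stress-response genes Gadd45g and Gadd45a rose by 1.47 and 2.00 (adjusted p = 0.000707 and 0.00272). Other genes of the list, chosen after their values were seen, moved both ways. The inhibitors Cdkn1c and Cdkn2c fell (-1.22 and -1.41, edgeR adjusted p = 0.0347 and 0.0196). Of the genes that drive the cycle, Ccne1 and Cdk2 rose (1.79 and 0.94, edgeR adjusted p = 0.0138 and 0.00442). Ccnd1 fell (-2.33, edgeR adjusted p = 0.00402). The transcripts of the urinary pair were not called in the same contrast, and the difference was not tested. In LPS+Tβ4 over LPS 0 of the 17 passed in edgeR (4 at an unadjusted p under 0.05, 1 called by DESeq2).

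Cst3 (chr2:148871722-148875576, minus strand) had 82.2, 84.2 and 98.5 FPKM in the LPS+Tβ4 libraries, 70.7, 78.0 and 48.7 FPKM in the LPS libraries and 73.7, 61.99 and 54.0 FPKM in the saline libraries. The LPS and saline libraries overlapped, and the LPS+Tβ4 libraries were above both groups in FPKM, but not above saline in CPM. LPS over saline gave -0.11 ± 0.19 (95% interval -0.55 to 0.33, edgeR adjusted p = 0.671), and its sign changed with scaling to library totals. LPS+Tβ4 over LPS gave 0.37 ± 0.19 (95% interval -0.07 to 0.81, edgeR adjusted p = 0.269), and LPS+Tβ4 over saline 0.26 ± 0.19 (edgeR adjusted p = 0.363). Of the 7 genes it had the narrowest interval in LPS over saline, from 0.683 to 1.26 times the saline level. Cells of the brain make cystatin C in quantity, and the part of the neural transcripts of LPS+Tβ4 in its level was not tested. The profiles most like that of Cst3 were those of Agpat5 (0.096), Exosc5 (0.115) and Rpl14-ps1 (0.125).

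Cystatin C inhibits cysteine cathepsins, which were listed with other cystatins. Of 14 cystatin and cathepsin genes 11 were tested, and 4 rose and 2 fell in LPS over saline by edgeR (list median 0.13), or 6 of 11 where 43.1% of all genes were called in either direction. Cstb, the intracellular cystatin B, rose to 238 ± 89.5 CPM in LPS, against 46.9 ± 0.7 CPM in saline (2.35 ± 0.34, edgeR adjusted p = 0.00109), and Ctsc, the activator of granule proteases, rose by 1.57 (adjusted p = 0.0013). Cathepsin F, Ctsf, fell by 1.23 on the log2 scale (adjusted p = 0.00121). Cathepsin B, Ctsb, had 178, 187 and 148 FPKM in LPS+Tβ4, 129, 132 and 174 FPKM in LPS and 86.8, 86.8 and 86.4 FPKM in saline. It was above saline in every library of an LPS-treated mouse, did not pass in LPS over saline (0.60 ± 0.23, edgeR adjusted p = 0.0667) and passed in LPS+Tβ4 over saline (0.78 ± 0.23, edgeR adjusted p = 0.0423). LPS over saline passed without LPS replicate 1 (0.80, edgeR adjusted p = 0.0258) and without LPS+Tβ4 replicate 3 (0.67, edgeR adjusted p = 0.0372). It also passed with library totals (adjusted p = 0.0108), DESeq2 (0.0222), limma at pseudocounts of 1 and 0.1 (0.00614 and 0.00588) and the urothelial covariate (0.0244). In LPS+Tβ4 over LPS 0 of the 11 passed in edgeR, with 2 at an unadjusted p under 0.05, 1 called by DESeq2 and 1 by limma.

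Among 35 tested genes of 36 other proteins measured as kidney injury markers, 17 rose and 7 fell in LPS over saline by edgeR, with a list median of 1.41. The adhesion receptor Icam1 rose by 3.65 ± 0.20 (171.6 ± 37.0 CPM in LPS, 13.7 ± 1.61 CPM in saline; adjusted p = 3.26e-05), and the class I light chain B2m by 2.66 ± 0.22 (adjusted p = 0.000108). The TNF receptor gene Tnfrsf1a rose to 193 ± 11.6 CPM in LPS, against 45.1 ± 5.39 CPM in saline (edgeR adjusted p = 4.31e-05). Umod, the Tamm-Horsfall protein of the thick ascending limb and chosen here after its values were seen, spread widely, with 617, 782 and 313 FPKM in LPS+Tβ4, 1049, 132 and 437 FPKM in LPS and 496, 830 and 516 FPKM in saline. Its groups overlapped and it was not called in any contrast. Egf, likewise chosen after its values were seen, separated saline from both LPS-treated groups, which overlapped each other. It had 2.56, 3.88 and 1.92 FPKM in LPS+Tβ4, 2.58, 2.67 and 6.92 FPKM in LPS and 75.2, 111.0 and 88.0 FPKM in saline (LPS over saline -4.59, edgeR adjusted p = 0.000397).

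Of these 35 genes, 3 were higher and 1 lower in LPS+Tβ4 than in LPS by edgeR, beside 4.5% and 2.33% of all genes tested. Penk, the precursor of enkephalin, was higher, at 7.34 ± 1.36 CPM in LPS+Tβ4 and 0.778 ± 0.391 CPM in LPS (3.23 ± 0.53, adjusted p = 0.0178). Penk is a neuropeptide gene, and its mean and the neural marker sum given above were both highest in LPS+Tβ4. Between LPS and saline they differed: the Penk mean was lower in LPS (not called), while the median neural sum was higher, with overlapping ranges. The part of the neural transcripts in the Penk values was not tested. The adhesion receptor Vcam1 had 74.4, 63.3 and 42.2 CPM in LPS+Tβ4, 19.1, 31.1 and 27.5 CPM in LPS and 8.78, 8.70 and 6.71 CPM in saline. Every LPS+Tβ4 library was above every LPS library (1.21 ± 0.25, edgeR adjusted p = 0.0328). Icam1 was lower, at 83.3 ± 10.03 CPM in LPS+Tβ4 and 171.6 ± 37.0 CPM in LPS (-1.04 ± 0.18, edgeR adjusted p = 0.0207), and the third higher gene, Hexa, the lysosomal hexosaminidase subunit, was chosen after its values were seen (0.65 ± 0.15, adjusted p = 0.0405). Leaving out LPS+Tβ4 replicate 1 or 2 or LPS replicate 2 ended the calls of Penk, Icam1 and Vcam1, with 0 of the 35 called in each case. Leaving out LPS replicate 1 gave 8 of the 35, where 2594 of all 14940 genes were called. Omitting any single saline library or LPS replicate 3 also ended the call of Vcam1 (edgeR adjusted p from 0.0529 to 0.0669) and left 2 of the 35. With DESeq2, 8 of the 35 passed, where 2442 of all 14952 genes did.

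The contrast of LPS+Tβ4 with saline shares its saline libraries with that of LPS with saline. Counts of genes higher and lower in LPS+Tβ4 over saline were 17 and 3 of 35 other markers, 2 and 0 of 5 shedding genes, 5 and 2 of 12 osteopontin receptors and modifiers and 1 and 1 of 8 complement and chaperone genes. They were 5 and 1 of 10 metalloproteinase genes, 1 and 4 of 14 growth factor genes, 5 and 1 of 11 cystatin and cathepsin genes and 6 and 2 of 17 arrest genes. Over all genes tested, 12.3% were called higher, 11.8% lower and 24.1% in either direction. The complement and chaperone counts are near those shares. Without LPS+Tβ4 replicate 1 the calls in either direction were 1 of 14 growth factor genes, 3 of 11 cystatin and cathepsin genes, 4 of 17 arrest genes, 1 of 5 shedding genes and 1 of 8 complement and chaperone genes. Single saline libraries and the other LPS+Tβ4 libraries also lowered some of these counts, or that of the osteopontin receptors, by over 1.5 times. Over all genes, 2069 of 15047 were called without LPS+Tβ4 replicate 1, against 3617 of 15015 with all libraries. Without any single saline library or LPS+Tβ4 replicate 2 or 3, 2208 to 2764 genes were called.

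**Figure D5:**
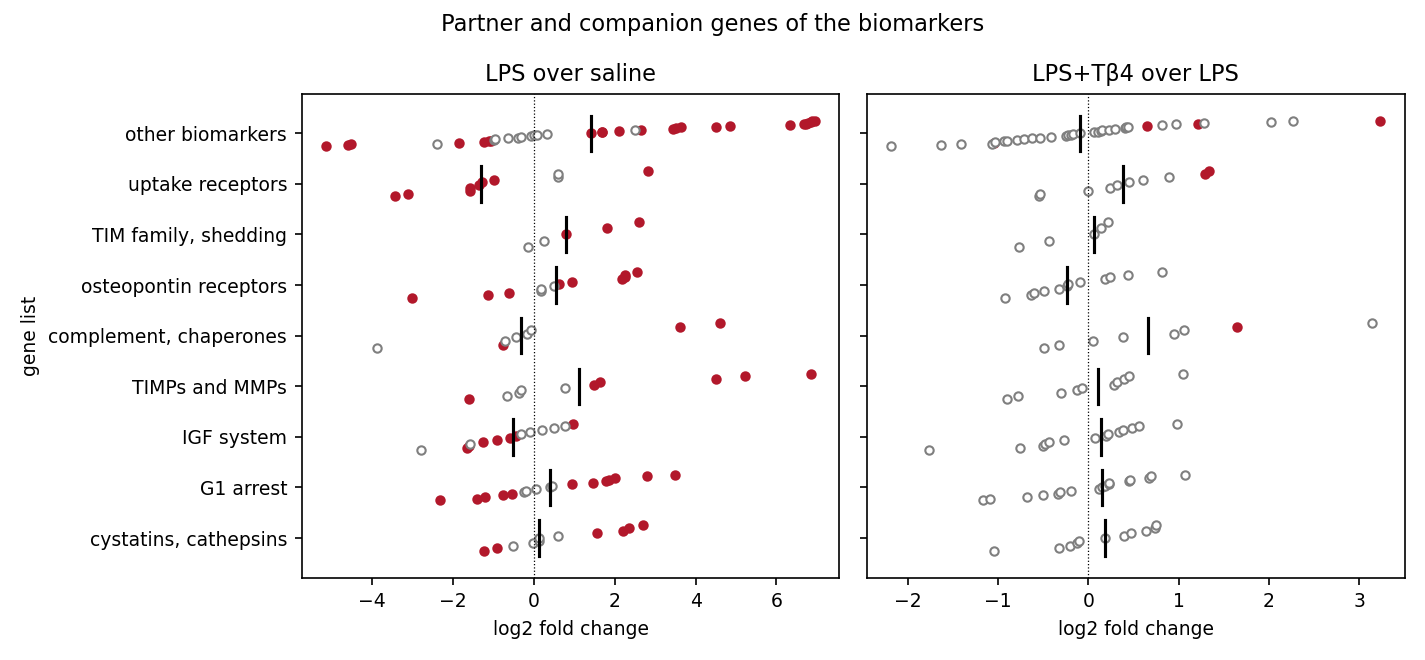
Log2 fold changes of partner and companion genes by list, for LPS over saline (left) and LPS+Tβ4 over LPS (right); points are tested genes, filled where the adjusted p over all genes tested was under 0.05, and black bars are list medians. On the left the other biomarkers have a median of 1.41 and the uptake receptors one of -1.32, and on the right few points are filled.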

How the data were processed

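RNA was sequenced from the kidneys of 9 mice, 3 in each group, as paired-end stranded poly(A) libraries, per the labels' protocols. The authors deposited 1 table with read counts and FPKM for each gene and library. Per the submitters' processing notes, the tools included HISAT2 2.2.1, StringTie 2.1.6 and cutadapt 1.9, with edgeR and DESeq2, and the build was GRCm38. Neither the counting program nor its strand setting is named there or in the labels.

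Under R 4.3.3, edgeR 4.0.16 was run on the deposited counts (quasi-likelihood F test, TMM scaling, 1 mean per group over all 9 libraries, 2-sided). Genes needed a mean deposited FPKM of 0.5 or more, which left 15015 of 34310, and p-values were adjusted by Benjamini-Hochberg over all of these at 0.05. Standard errors came from the log2 change and its F value, and intervals are 95%. Profile likeness is the root mean square difference of log2(CPM + 0.5), centred on each gene's mean, over 9 libraries and 11566 candidate genes. Alternatives were DESeq2 1.42.0, limma 3.58.1 on log2(FPKM + 1) and log2(FPKM + 0.1), other scalings and filters, a replicate block, a urothelial covariate (log2 of the summed CPM + 0.1), the 6 libraries compared alone, and leaving out each library. Scripts were tested on simulated data. Same-numbered libraries of different groups did not deviate together (correlations from -0.656 to 0.318), so the numbers were not taken as pairs. Promoter sequences are RefSeq's, build GRCm38.p6.

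The 7 genes and all gene lists were chosen with earlier results of these data known. Named genes are the 7, up to 3 genes of each list with the smallest adjusted p in LPS over saline, up to 3 that passed in LPS+Tβ4 over LPS, the 3 closest profiles of each of the 7, and the partners Timp1, Mmp2, Mmp14, Igfbp3, Ctsb, Cd44, Lrp2 and Slc22a17. The neutrophil marker Ly6g, the top-ranked mt-Co1 and the overlapping genes Polr2b and Gm42793 are named as well. Other names are marked as chosen after their values were seen.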

Additional observations from a re-analysis of the deposited data

How the results depend on the processing

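The calls of Lcn2, Havcr1, Spp1 and Clu against saline held in all 20 alternatives for both LPS-treated groups. DESeq2 called 1 of the 7 genes in LPS+Tβ4 over LPS, against 0 in edgeR. With the replicate block, 4 genes were called in LPS over saline, 0 in LPS+Tβ4 over LPS and 4 in LPS+Tβ4 over saline, as without it, while over all genes the block left 5 called in LPS+Tβ4 over LPS, against 1025. That count was 2442 with DESeq2, 647 with no expression filter and 37 with the 6 libraries alone, and between 60 (without LPS+Tβ4 replicate 2) and 2594 (without LPS replicate 1) with 1 library left out. Scaling to library totals moved the median of all genes to 0.17 in LPS over saline and 0.20 in LPS+Tβ4 over saline, and the share of higher calls in LPS+Tβ4 over LPS to 80.0%, against 65.9%. Signs turned only for values that did not pass. Cst3 in LPS over saline was 0.045 with library totals and 0.041 and 0.042 with limma at pseudocounts of 1 and 0.1. Havcr1 in LPS+Tβ4 over LPS was 0.02 with library totals and 0.04 with upper-quartile scaling. Igfbp3 in LPS over saline was 0.027 with library totals, 0.1 and 0.104 with limma, and 0.04 with the replicate block. With 1 library left out, LPS over saline ran from -0.242 to 0.11 for Cst3 and from -0.506 to 0.621 for Igfbp3. LPS+Tβ4 over LPS ran from -0.425 to 0.312 for Havcr1, -0.284 to 0.758 for Timp2, -0.352 to 0.049 for Igfbp7, -0.094 to 0.686 for Mmp2 and -0.594 to 0.07 for Cd44. The causes were not tested. List counts stayed within 1.5 times in 172 of 180 values for LPS over saline, 140 of 180 for LPS+Tβ4 over LPS and 152 of 180 for LPS+Tβ4 over saline.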

Other observations

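The ratio of Igfbp7 to Timp2, whose proteins are multiplied in the urinary test, spread widely within groups. In FPKM it was 80.2, 57.4 and 26.0 in the LPS+Tβ4 libraries, 26.7, 76.2 and 132 in the LPS libraries and 70.1, 31.1 and 52.4 in the saline libraries. The 3 groups overlapped, and the lowest and the highest LPS values were both outside the saline range. The ratio of Spp1 to Lcn2 separated LPS+Tβ4 replicates 1 and 2 (14.7 and 24.5) from LPS+Tβ4 replicate 3 (5.38) and from the LPS libraries (2.64, 2.19 and 6.62), and was 45.0, 36.0 and 42.8 in saline. LPS+Tβ4 replicate 3 lay within the LPS range, so the groups overlapped. Both ratios were chosen after their values were seen and were not tested.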
